A study of Mus musculus and Homo sapiens with 10 samples.

Results

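A set of 10 genes of the H3K9 methylation and retroelement silencing machinery were followed in RNA-seq libraries of vitC-treated and untreated embryonic stem cells. They were taken by symbol (*Setdb1*, *Trim28*, *Atf7ip*, *Ehmt1*, *Ehmt2*, *Suv39h1*, *Suv39h2*, *Cbx5*, *Morc3* and *Hells*), with earlier results of these data known. All 10 were found among the 25899 genes of the mouse table and, in upper case, all 10 among the 35720 genes of the human table. In the mouse cells (mESCs), all 10 members were above the lowest value in every library and were tested among 14631 genes.

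The mESCs were of the E14 line and were grown in 2i medium, which is free of serum and holds LIF and inhibitors of MEK and GSK3, whereas the human cells (hESCs) were of the H9 line in medium with KSR and FGF. For 24 h, 4 mESC cultures and 1 hESC culture received 100 µg/ml vitC, and the same numbers of cultures were left untreated. The labels name no deletion or transgene, but the hESC medium they give is the one that the study's methods pair with H9-NK2, an H9 derivative with doxycycline-inducible *KLF2* and *NANOG* transgenes. Each mESC control shared its replicate number and sample code with 1 treated library: replicates 1 and 2 carried the codes 10 and 11 (the first set), and replicates 3 and 4 the codes 35B and 35C (the second set). The labels give total RNA for the mESCs and polyA RNA for the hESCs, whereas the study's methods describe rRNA depletion for RNA-seq, so how RNA was selected for each library is not settled. Nothing in the labels says whether the replicates of a group were grown independently, so p-values measure the spread between these libraries.

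Methylation of lysine 9 on histone H3 marks silent chromatin, and in embryonic stem cells it holds down endogenous retroviruses and L1 elements. KRAB zinc finger proteins bind a retroelement and bring in TRIM28, which recruits the methyltransferase SETDB1 with its partner ATF7IP. The G9a-GLP pair (EHMT2 and EHMT1) places the dimethyl mark, and SUV39H1 and SUV39H2 place the trimethyl mark in pericentromeric chromatin and on young L1s. CBX5 (HP1 alpha) reads the methylated tail, and MORC3 and HELLS, an ATPase and a chromatin remodeller, help to keep such regions silent. VitC is a cofactor of dioxygenases that take the marks off, among them the JmjC demethylases of H3K9.

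In vitC-treated mESCs, *Atf7ip* transcripts stood at 1.89 times the mean control level. *Setdb1*, *Ehmt1* and *Suv39h1* were each higher in 4 of 4 pairs by smaller amounts, whereas *Trim28*, *Ehmt2*, *Suv39h2*, *Cbx5*, *Morc3* and *Hells* passed neither fit. At an adjusted p of 0.05, limma without a term for the replicate number (the unpaired fit) called 0 of the 10 members, where 0.342% of the genes tested were called in either direction. With that number entered as a blocking factor (the paired fit), it called 4 members higher and 0 lower, where 6.36% of genes were called higher and 4.44% lower. The 4 were *Atf7ip*, *Setdb1*, *Suv39h1* and *Ehmt1*, which are also the members that were higher in every pair, as 15.4% of all tested genes were. The median difference of the 10 members was 0.08 on the variance-stabilised log2 scale, and that of all tested genes was -0.00198. In bulk libraries, less RNA per cell and fewer cells of a type cannot be told apart.

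The 250 bases before the RefSeq start of each of these 4 genes (GRCm38.p6) are shown because these are the members called in the paired fit. They are given 5′ to 3′ on the strand of the gene, and capitals mark each CpG, the dinucleotide at which DNA methylation is placed and removed. The stretches lie on chr6:136518601-136518850 (plus strand, *Atf7ip*), chr3:95357203-95357452 (minus, *Setdb1*), chrX:8074761-8075010 (minus, *Suv39h1*) and chr2:24919610-24919859 (minus, *Ehmt1*).
Atf7ip: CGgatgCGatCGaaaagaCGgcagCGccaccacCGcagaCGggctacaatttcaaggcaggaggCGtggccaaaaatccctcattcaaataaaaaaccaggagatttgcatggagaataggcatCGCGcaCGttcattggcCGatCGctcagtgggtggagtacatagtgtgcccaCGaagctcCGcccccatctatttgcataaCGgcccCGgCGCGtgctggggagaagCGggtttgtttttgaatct
Setdb1: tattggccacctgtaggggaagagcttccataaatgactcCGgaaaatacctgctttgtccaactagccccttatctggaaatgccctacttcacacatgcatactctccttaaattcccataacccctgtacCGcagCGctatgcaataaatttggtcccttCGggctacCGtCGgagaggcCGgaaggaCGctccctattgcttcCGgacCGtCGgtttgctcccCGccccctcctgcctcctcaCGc
Suv39h1: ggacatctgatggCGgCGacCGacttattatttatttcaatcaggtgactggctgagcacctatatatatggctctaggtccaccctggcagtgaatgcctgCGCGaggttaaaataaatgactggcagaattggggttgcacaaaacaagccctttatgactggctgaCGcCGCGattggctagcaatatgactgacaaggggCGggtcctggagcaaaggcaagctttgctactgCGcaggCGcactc
Ehmt1: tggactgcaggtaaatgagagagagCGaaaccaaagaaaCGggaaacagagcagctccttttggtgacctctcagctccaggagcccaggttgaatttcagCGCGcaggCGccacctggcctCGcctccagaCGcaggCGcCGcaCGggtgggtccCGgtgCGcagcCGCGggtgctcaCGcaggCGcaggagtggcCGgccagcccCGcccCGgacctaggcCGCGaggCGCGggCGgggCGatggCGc

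All 10 members were found in the RefSeq promoter table, and all 10 upstream stretches held more CpGs than the median of 6 over its 32851 stretches of this length. *Atf7ip* had 20 CpGs, *Setdb1* 13, *Suv39h1* 11 and *Ehmt1* 26, and the other members had between 17 and 28. The GC box letters GGGCGG, searched on both strands like the rest, occurred in all 10 members and in 32.7% of all stretches. CCAAT occurred in *Atf7ip*, *Setdb1*, *Suv39h1*, *Cbx5* and *Morc3*, and in 33.8% of all stretches. TGCGCA, a core of the NRF1 motif, was found in *Ehmt1*, *Suv39h1* and *Cbx5*, and in 6.43% of all stretches. CCGGAA, an ETS core, was found in *Setdb1* alone of the members (12.0% of all stretches), and TATAAA in 0 of the 10 (12.4%). ACGTG, the core bound by HIF factors, was in *Trim28*, *Atf7ip*, *Ehmt2* and *Cbx5* (16.6%), and the E-box CACGTG, which contains it, in *Ehmt2* and *Cbx5* (6.02%). Of these motifs, the GC box alone was shared by the 4 genes called in the paired fit. For *Suv39h1*, *Ehmt2* and *Cbx5*, which have 2 starts in the table, the start nearest to the 5′ end of the annotated gene was used. The start of *Atf7ip* lies 12684 bases downstream of that end, and the start of *Trim28* 25038 bases. The stretches of *Atf7ip* and *Trim28* thus lie inside the annotated gene. The starts of the other members were within 75 bases of the annotated 5′ end.

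*Atf7ip* (chr6:136506167-136610862, plus strand, GRCm38) encodes the protein that binds SETDB1 and protects it from degradation. Its level in the controls was 133, 130.5, 93.1 and 90.3 CPM (counts-per-million of recovered gene reads) in replicates 1 to 4. In the vitC-treated cultures with the same numbers it was 240.2, 268, 164 and 172 CPM. Every treated library was above every control library, which held for 3.31% of all tested genes and for no other member. Within the pairs, the fold changes were 1.81, 2.05, 1.76 and 1.91. The mean rose from 112 ± 23.1 (SD, n = 4) to 211 ± 51.0 CPM (SD, n = 4). On the deposited scale, the difference was 0.79 (standard error 0.17, 95% interval 0.42 to 1.16, limma adjusted p = 0.112). In the paired fit, its standard error was 0.04 and its interval 0.70 to 0.88 (limma adjusted p = 4.6e-10), which ranked the gene at 7 of 14631 by p and 19 by size. DESeq2 on the recovered reads called it without a block as well (adjusted p = 0.00129), alone among the members, where 0.958% of genes were called. Over the 30 fits tried, the difference lay between 0.67 and 0.93 and the adjusted p between 8.23e-34 and 0.357, past the threshold in 14. The fits are not all separate: the paired fits that left out a library gave the same difference for either library of a pair.

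*Atf7ip* was also called within each culture set on its own. In replicates 1 and 2, its difference was 0.84 (standard error 0.07, limma adjusted p = 0.00326, 2 libraries a group), where 0.569% of genes were called. In replicates 3 and 4, it was 0.73 (standard error 0.07, limma adjusted p = 0.00089, 2 libraries a group), where 0.516% were called. In both sets it was the sole member past the threshold. Of the 8 tested genes within 500 kb of it, 0 were called higher and 1, *Hist4h4*, lower in the paired fit, and their differences ran from -0.18 to 0.04.

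**Figure D1:**
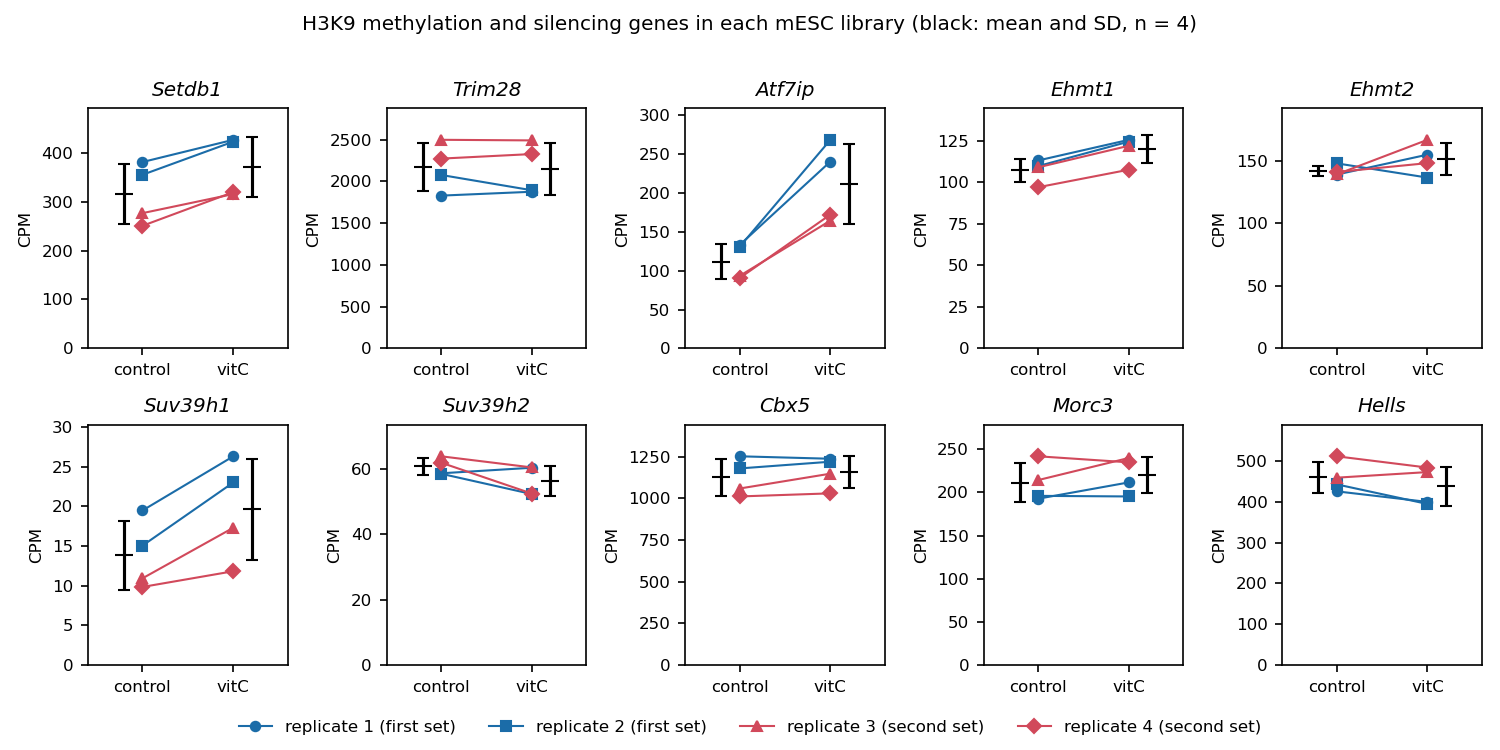
Level of each member in CPM (axes from 0) in the 8 mESC libraries; lines join the control and the vitC-treated library with the same replicate number, blue for the first set (replicates 1 and 2) and red for the second (replicates 3 and 4), and black marks give the mean and SD (n = 4). Only for *Atf7ip* do all 4 treated libraries (164 to 268 CPM) lie above all 4 controls (90.3 to 133 CPM), while *Setdb1*, *Ehmt1* and *Suv39h1* rise along every line but overlap between groups.

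*Setdb1* (chr3:95323525-95357202, minus strand) encodes the main methyltransferase for the trimethyl mark on retroviruses in these cells. In the controls it was at 381, 355, 276 and 251 CPM, and in the treated libraries at 426, 423, 315 and 319 CPM. Treated libraries of the second set thus lay below controls of the first, and the groups overlapped. Pair by pair, the fold changes were 1.12, 1.19, 1.14 and 1.27. The means were 316 ± 62.1 and 371 ± 61.8 CPM (SD, n = 4 each) and differed by 0.23 on the deposited scale (standard error 0.15, 95% interval -0.10 to 0.56, limma adjusted p = 0.783). With the block, the standard error was 0.04 and the interval 0.15 to 0.31 (limma adjusted p = 0.000403). This call held in each of the 8 paired fits that left out 1 library. These are not 8 separate checks, since leaving out either library drops its pair from the comparison and gives the same difference. The adjusted p ran from 0.00019 to 1.00 over all 30 fits, 11 of them past the threshold. The 75 exonic bases that *Setdb1* shares with *Lass2* (now *Cers2*) on the other strand come from a gene whose paired difference was 0.11 (standard error 0.04, limma adjusted p = 0.0991).

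The reads of *Atf7ip* for each read of *Setdb1* numbered between 0.337 and 0.368 in the 4 controls. In the 4 treated libraries the ratio was between 0.521 and 0.634, above every control in both culture sets. The controls of the 2 sets, which differ in the level of either gene, were close in this ratio. It was chosen after the values had been seen and is given without a test. *Trim28* reads for each *Setdb1* read were 4.80 and 5.85 in the controls of the first set and 9.04 and 9.07 in those of the second, and lower in the treated library of each pair (4.40, 4.48, 7.90 and 7.29).

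**Figure D2:**
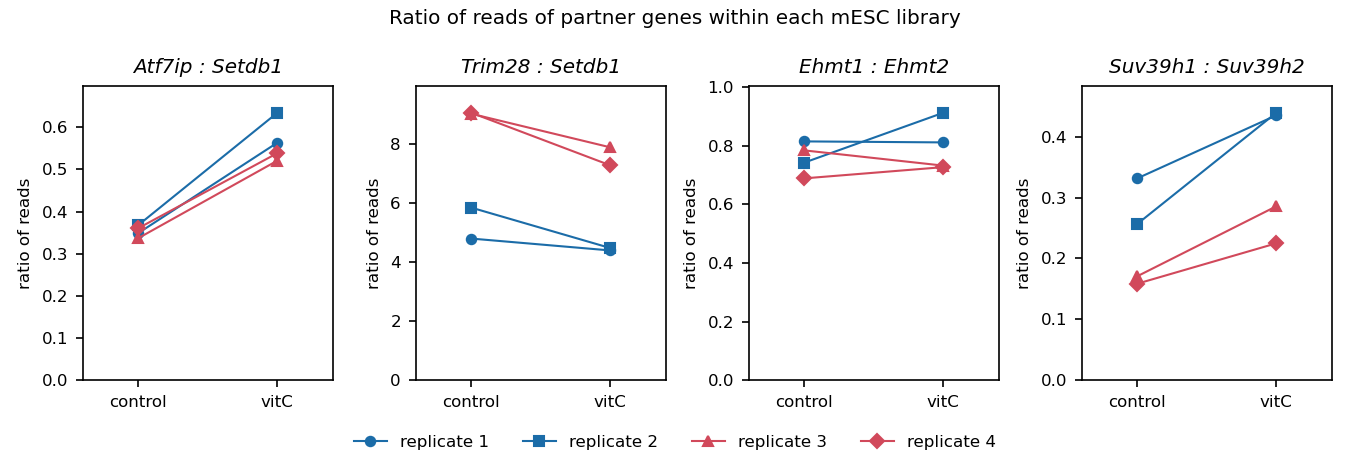
Ratio of the recovered reads of partner genes within each mESC library (axes from 0), with lines joining libraries of the same replicate number, blue for the first set and red for the second. The *Atf7ip* to *Setdb1* ratio is 0.337 to 0.368 in controls and 0.521 to 0.634 with vitC in both sets, whereas the *Trim28* to *Setdb1* and *Suv39h1* to *Suv39h2* ratios are split by set as well, and the *Ehmt1* to *Ehmt2* ratio is higher with vitC in 2 of 4 pairs.

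*Suv39h1* (chrX:8061171-8074760, minus strand) had the fewest reads of the members, between 49 and 141 in a library. Its level was 19.5, 15.0, 10.9 and 9.82 CPM in the controls and 26.3, 23.0, 17.3 and 11.8 CPM with vitC. The treated libraries were higher in 4 of 4 pairs, with folds of 1.35, 1.53, 1.58 and 1.20, and the groups overlapped. The means were 13.8 ± 4.39 and 19.6 ± 6.39 CPM (SD, n = 4 each). The difference was 0.24 on the deposited scale, which compresses genes with few reads (standard error 0.14, limma adjusted p = 0.763), and it was called in the paired fit (standard error 0.05, limma adjusted p = 0.00678). On reads, edgeR with the block gave a log2 fold change of 0.50 (standard error 0.11, adjusted p = 0.00427). That fit called 8.19% of genes higher, and among the members the same 4 as the paired limma fit. DESeq2 with the block called 3.74% of genes and 2 of the members, *Atf7ip* and *Setdb1*, and gave *Suv39h1* an adjusted p of 0.190. Its adjusted p ran from 0.00427 to 1.00 over all 30 fits, and 10 were past the threshold. *Gm14820*, which overlaps *Suv39h1* by 767 exonic bases on the other strand, was at 31.0 ± 4.77 CPM in controls and 24.4 ± 4.05 with vitC (SD, n = 4 each), lower in 4 of 4 pairs. Its difference of -0.19 was called in the paired fit (standard error 0.05, limma adjusted p = 0.0259) and not in the unpaired fit (limma adjusted p = 0.654). The study's methods name a directional library kit. How strand was used in counting is not given in the sources used here, so reads of the overlap cannot be told apart.

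*Suv39h2* (chr2:3455815-3475031, minus strand), the paralog of *Suv39h1*, did not follow it. It was at 58.7, 58.6, 63.9 and 62.0 CPM in the controls and at 60.4, 52.3, 60.5 and 52.5 CPM with vitC, higher in 1 of 4 pairs. The difference of -0.07 (95% interval -0.20 to 0.06, limma adjusted p = 0.851) was not past the threshold with the block either (interval -0.17 to 0.03, limma adjusted p = 0.381). There were 0.159 to 0.331 reads of *Suv39h1* for each read of *Suv39h2* in controls and 0.225 to 0.439 with vitC, higher in the treated library of each pair. *Suv39h2* shares 357 exonic bases with *Dclre1c* on the other strand, whose paired difference was -0.04 (standard error 0.05, limma adjusted p = 0.724).

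The G9a-GLP pair showed small differences. *Ehmt1* (chr2:24789928-24919614, minus strand), which encodes GLP, was at 113, 109.7, 109 and 96.9 CPM in controls and at 125, 124, 122 and 108 CPM with vitC. The 4 pairs gave nearly the same fold, from 1.11 to 1.13, and the treated library of replicate 4 lay below the controls of the other 3 replicates. Its mean rose from 107 ± 7.03 to 119.8 ± 8.35 CPM (SD, n = 4 each), a difference of 0.14 (standard error 0.07, 95% interval -0.01 to 0.29, limma adjusted p = 0.684). It was called in the paired fit (standard error 0.04, interval 0.06 to 0.23, limma adjusted p = 0.0277) and in edgeR with the block (adjusted p = 0.0211), and in these 2 alone of 30 fits, whose adjusted p ran from 0.0211 to 1.00. Leaving out any of the 8 libraries in turn ended the paired call, with adjusted p between 0.0655 and 0.0994. Either library of a pair gave the same difference when left out, so these fits amount to leaving out each pair. *Ehmt2* (chr17:34898469-34914052, plus strand), which encodes G9a, was at 139, 148, 139 and 141 CPM in controls and at 155, 136, 167 and 148 CPM with vitC. It was higher in 3 of 4 pairs, and its difference of 0.09 (95% interval -0.05 to 0.23, limma adjusted p = 0.819) was not called with the block (interval -0.01 to 0.19, limma adjusted p = 0.250).

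*Trim28* (chr7:12999114-13031035, plus strand), the corepressor that brings SETDB1 to retroviruses, was the most abundant of the 10 by reads. It was at 1829.5, 2077, 2498 and 2273 CPM in the controls and 1876, 1894, 2491 and 2327 CPM with vitC. The libraries separated by culture set and not by treatment. The difference was -0.01 (95% interval -0.27 to 0.26, limma adjusted p = 0.997). The paired fit narrowed the interval to -0.07 to 0.06 (limma adjusted p = 0.934).

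The members that read or maintain the mark were not called in either fit. *Cbx5* (chr15:103191544-103239816, minus strand) was at 1252, 1179, 1058 and 1011 CPM in controls and 1237, 1219, 1147 and 1029 CPM with vitC, a difference of 0.05 (paired 95% interval -0.01 to 0.12, limma adjusted p = 0.301). *Morc3* (chr16:93832121-93876073, plus strand) was at 193, 196, 214 and 242 CPM in controls and 212, 195, 240.0 and 235 CPM with vitC, a difference of 0.07 (paired interval -0.02 to 0.15, limma adjusted p = 0.341). *Hells* (chr19:38930915-38971051, plus strand) was at 426, 443, 459 and 511 CPM in controls and 399.6, 395, 473 and 484 CPM with vitC, a difference of -0.06 (paired interval -0.13 to 0.02, limma adjusted p = 0.340). For each of these genes the treated and control values interleaved. Over the 6 members called in neither fit, the largest rise that any paired interval allowed was 0.19 (*Ehmt2*) and the largest fall -0.17 (*Suv39h2*).

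**Figure D3:**
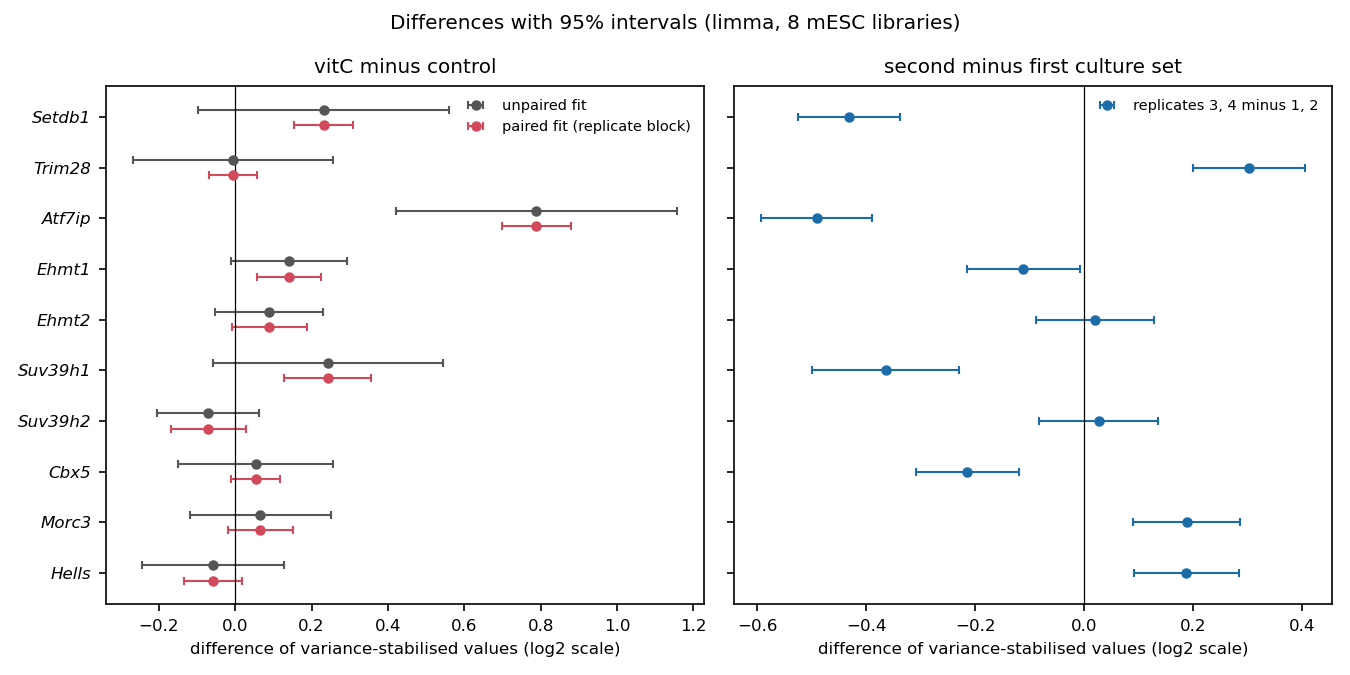
Differences of the variance-stabilised values (log2 scale) with 95% intervals from limma on the 8 mESC libraries: left, vitC minus control in the unpaired (grey) and paired (red) fits; right, the second culture set (replicates 3 and 4) minus the first (replicates 1 and 2). *Atf7ip* lies at 0.79 in both fits with intervals above 0, and the paired intervals of *Setdb1*, *Suv39h1* and *Ehmt1* alone exclude 0 among the rest. The set differences of 7 members are as large as -0.49 to 0.30, in a fit without the replicate number.

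The culture sets differed in the level of most members. In a fit with set and treatment, 7 of 10 members were past the threshold for the set, where 40.5% of all genes were. This fit had no term for the replicate number, so it counted the control and treated library of a code as independent. The sets hold only the codes 10 and 11 against 35B and 35C, so its standard errors and p-values overstate the precision. *Atf7ip* (-0.49, standard error 0.05, limma adjusted p = 2.68e-07), *Setdb1* (-0.43, standard error 0.04, limma adjusted p = 4.54e-07), *Suv39h1* (-0.36) and *Cbx5* (-0.21) were lower in the second set. *Trim28* (0.30, standard error 0.05, limma adjusted p = 7.36e-05), *Morc3* (0.19) and *Hells* (0.19) were higher in it. In CPM, *Setdb1* was at 396 ± 34.4 in the first set and 290.4 ± 32.9 in the second (SD, n = 4 libraries each), and *Trim28* at 1919 ± 109 and 2397 ± 114. The sets did not overlap for *Setdb1*, *Trim28*, *Cbx5*, *Morc3* and *Hells*. The share of all genes without overlap of the sets was not counted, so this is not shown to be particular to the members. *Ehmt2* (0.02) and *Suv39h2* (0.03) were not called, nor was *Ehmt1* (-0.11, limma adjusted p = 0.080), which was past the threshold without control replicate 3, without vitC replicate 3 and in edgeR on recovered reads (-0.15, adjusted p = 0.0493). Codes 35B and 35C share a number, but what separated the sets is not stated, and any cause of the difference cannot be told apart from the set. The unpaired fit counts this difference as replicate error.

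The vitC difference itself was not shown to differ between the sets for any member. The interaction of set and treatment was past the threshold for 0 of 10 members and 0.0% of all genes (limma), while an unadjusted p under 0.05 was reached by 223 genes with a larger difference in the second set and 378 with a smaller one. With the block, 13 genes were past it, none of them a member, and edgeR called 0. For *Atf7ip* the interaction was -0.11 (standard error 0.10, limma adjusted p = 1.00, and from 0.823 to 1.00 over the 11 fits tried).

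Per length, the members spanned a wide range in untreated mESCs. On RPKM, which is CPM divided by the length of the union of exons in kb, the control means were 522 for *Trim28*, 125 for *Cbx5*, 63.8 for *Hells*, 46.1 for *Setdb1*, 38.9 for *Morc3*, 25.8 for *Ehmt2*, 13.8 for *Suv39h2*, 13.2 for *Ehmt1*, 5.39 for *Atf7ip* and 2.62 for *Suv39h1*. The control libraries of neighbours in this order overlapped for *Setdb1* and *Morc3* and for *Suv39h2* and *Ehmt1*, and for no other neighbours. *Trim28* was above 99.5% of the 14174 genes with reads and a length, *Atf7ip* above 53.2% and *Suv39h1* above 41.2%. *Atf7ip* went from 5.39 ± 1.12 to 10.2 ± 2.46 RPKM with vitC (SD, n = 4 each), where *Suv39h2* was at 12.8 and *Ehmt1* at 14.8. The order depends on the length used: by coding length, *Cbx5*, whose transcript is mostly noncoding, came first (1963) and *Trim28* next (867), and *Atf7ip* (28.5) stood beside *Ehmt1* (27.6). With vitC, *Atf7ip* was above both *Suv39h2* and *Ehmt1* by the other lengths, at 53.9 against 39.4 and 30.8 by coding length and at 26.2 against 13.04 and 20.1 by longest transcript.

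In hESCs, with 1 library per condition and no test, 8 of the 9 members with reads had log2 ratios between -0.05 and 0.04. *ATF7IP* had 1291 reads in the control and 1427 in the treated library, or 84.0 and 83.0 CPM, a log2 ratio of -0.02 (95% exact Clopper-Pearson interval -0.13 to 0.09). *SETDB1* was at 49.8 and 51.3 CPM (0.04, interval -0.10 to 0.18), *EHMT1* at 132 and 129.9 CPM (-0.03, interval -0.11 to 0.06) and *SUV39H1* at 18.8 and 18.3 CPM (-0.04, interval -0.28 to 0.19). The interval of *ATF7IP* thus ended below the pair changes of its mouse counterpart, but the mouse and human libraries differ in species, medium and the RNA type the labels give, and were normalised separately. *TRIM28*, with 13705 and 14771 reads, had a ratio of -0.05 (interval -0.09 to -0.02). *SUV39H2* (-0.01), *CBX5* (0.01) and *HELLS* (0.01) had intervals that included 0. These intervals cover counting error only.

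*MORC3* was the member that stood apart in hESCs. It had 461 reads in the control and 666 in the treated library, or 30.0 and 38.7 CPM, a log2 ratio of 0.37 (interval 0.20 to 0.54). Of the 13219 genes with at least 50 reads over both libraries, 11.7% were at least as far from a ratio of 1, and the 5th and 95th percentiles of all these genes were -0.36 and 0.45. *MORC3* shares 89 exonic bases with *CHAF1B* and 205 with a long noncoding RNA gene on the same strand. It shares 115 with another such gene on the other strand. Reads of these overlaps may be counted to any of the genes. Its difference on the deposited scale, which compresses low values, was 0.09.

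*EHMT2* was listed at 0 reads in both hESC libraries. Of the 36 other coding genes within 250 kb of it, 30 (83.3%) were also at 0, against 19.1% of all 17967 coding genes listed. Whether *EHMT2* is expressed in these cells was not tested. The same libraries had reads of the pluripotency genes *POU5F1* (67.3 and 68.2 CPM) and *SOX2* (353 and 354 CPM), and of *ZIC2* (197 and 198 CPM) and *SFRP2* (157 and 161 CPM), which mark the primed state. The other listed markers were *NANOG* (41.8 and 49.3 CPM), *LIN28A* (1177 and 1207 CPM), *DPPA4* (309 and 288 CPM) and *DUSP6* (96.6 and 114 CPM).

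**Figure D4:**
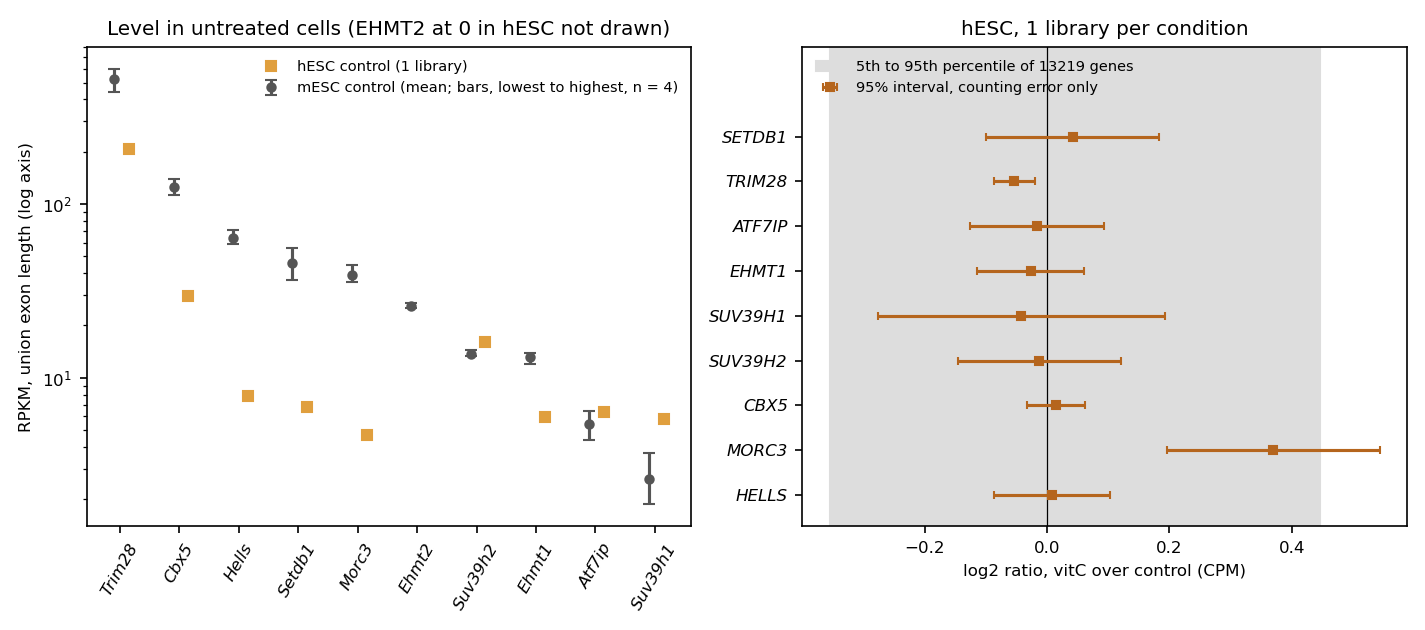
Left, level of each member in untreated cells in RPKM (CPM per kb of union exon, log axis), with the mESC mean and range of 4 libraries (grey) and the 1 hESC library (orange); *EHMT2*, listed at 0 in hESCs, is not drawn. Right, log2 ratio of CPM in the vitC-treated over the control hESC library with 95% intervals for counting error, over the 5th to 95th percentile of 13219 genes (grey, -0.36 to 0.45); *MORC3* lies at 0.37 and the other members between -0.05 and 0.04.

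The other genes of the pathway were grouped into lists by role. Of 57 tested genes in 7 lists, the unpaired fit called 0 (0.342% of all genes), and the paired fit 6 higher and 1 lower (6.36% and 4.44% of all genes). Their median difference was 0.04, beside -0.00198 for all genes. Of the 10 partners of SETDB1 and TRIM28, 3 rose in the paired fit. *2810474O19Rik* (*Resf1*), a SETDB1-interacting retroelement silencing factor, was at 227 ± 15.7 CPM in controls and 297 ± 19.1 with vitC (SD, n = 4 each), and the difference was 0.36 (standard error 0.07, limma adjusted p = 0.0851 unpaired and 1.49e-06 paired). *Mbd1*, a methyl-CpG binder linked to SETDB1, rose by 0.24 (paired limma adjusted p = 0.00577) and *Trim33*, a TRIM28 relative, by 0.12 (paired limma adjusted p = 0.0460). Each was higher in 4 of 4 pairs.

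Among the 8 other methyltransferases and G9a-GLP partners, *Cdyl2*, a chromodomain reader, rose by 0.23 (standard error 0.04) and *Wiz*, the zinc finger partner of G9a-GLP, by 0.15 (standard error 0.04) in the paired fit, with limma adjusted p of 0.00218 and 0.0384. Of the 9 HP1 proteins and heterochromatin readers, *Cbx3* (HP1 gamma) fell by 0.18 (standard error 0.04, paired limma adjusted p = 0.0106), from 112 ± 14.6 to 94.8 ± 8.68 CPM (SD, n = 4 each), lower in 4 of 4 pairs. Of the 10 tested H3K9 demethylases, *Kdm3b*, which removes the lower methylation states, rose by 0.21 (standard error 0.04, paired limma adjusted p = 0.000647), from 328 ± 51.6 to 381 ± 55.4 CPM. No gene was called in either fit among the 7 tested HUSH and MORC genes, the 5 of ATRX, DAXX and H3.3, or the 8 of the PRC1.6 complex, where the genes with the largest differences were *Morc2b* (0.19, 10 reads in all), *Atrx* (0.10) and *Rnf2* (-0.11).

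The mESCs expressed naive pluripotency markers at a summed level of 5522 to 5967 CPM in controls and 5362 to 5911 with vitC, with all 10 listed genes above 0. In the paired fit, where 6.36% of all genes were called higher and 4.44% lower, 2 of the 10 were higher and 4 lower, among them *Nanog* (-0.25, limma adjusted p = 0.000647), *Klf2* (-0.13, limma adjusted p = 0.0351) and *Dppa3* (0.30, limma adjusted p = 0.00363), and 0 were called unpaired. Markers of other cells were low: the 7 primitive endoderm genes summed to 3.12 to 7.08 CPM in controls and 4.77 to 11.6 with vitC, the 6 fibroblast genes (with *Dcn* at 0) to 5.20 to 16.8 and 9.44 to 14.4, and the 7 ectoderm and mesoderm genes (with *Neurog2* at 0) to 17.4 to 29.7 and 23.3 to 27.3. The 6 trophoblast genes (with *Elf5* and *Hand1* at 0) summed to 56.9 to 74.3 CPM and 64.7 to 86.5. *Tfap2c* alone had a mean of 48.3 CPM in controls and 61.6 with vitC, and rose in the paired fit (0.26, limma adjusted p = 0.000922). The other tested genes of that list, *Eomes* (-0.11), *Krt7* (-0.06) and *Cdx2* (-0.002), were not called. The 6 2-cell genes in the table (with *Tcstv1*, *Tcstv3* and *Zfp352* at 0) reached at most 0.973 CPM in controls and 4.66 with vitC. Among them *Zscan4d* rose in the paired fit (0.24, limma adjusted p = 0.0331, 16 reads in all). In the endoderm list, *Pdgfra* rose in that fit (0.23, limma adjusted p = 0.026, 122 reads in all). The other tested genes of that list were not called: *Gata4* (-0.10), *Sox7* (-0.13), *Sox17* (-0.06), *Dab2* (-0.01) and *Foxa2* (0.09). The part of these markers in the member results was not tested.

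The retroelements that these proteins silence were measured in the same 8 libraries, in expected counts per subfamily. Of the 6 subfamilies fixed as targets and present, the unpaired edgeR fit called 0, where 0.887% of 902 tested subfamilies were called. The fit with the block called 2 higher, where 4.32% were. Levels of subfamilies are given in CPM of all subfamily counts, with library sizes scaled by TMM, unlike the CPM of genes. IAPEz-int, the classic target of TRIM28 and SETDB1, was at 1445, 1300.4, 1171 and 1168 CPM in controls and 1819, 1594, 1300.5 and 1340.1 with vitC. Its log2 fold change was 0.25 with the block (standard error 0.05, edgeR adjusted p = 0.0242). L1Md_T, a young L1 subfamily, was at 8506, 8002, 6243 and 6915 in controls and 14481, 12786, 10068 and 11047 with vitC, with a log2 fold change of 0.71 with the block (standard error 0.05, edgeR adjusted p = 0.000124; 0.0524 without it). On uniquely mapped counts, also with the block, the changes were 0.15 for IAPEz-int (standard error 0.10, edgeR adjusted p = 0.602) and 0.31 for L1Md_T (standard error 0.06, edgeR adjusted p = 0.0657). Neither was called there, where 0.539% of 742 subfamilies were called in either direction, and without the block the changes were 0.14 and 0.30, not called either.

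MERVL-int and its LTR MT2_Mm, which mark the 2-cell-like state, had paired log2 fold changes of 0.03 (95% interval -0.07 to 0.13) and -0.06 (95% interval -0.18 to 0.06). L1Md_A had 0.23 (standard error 0.09, edgeR adjusted p = 0.227). MMERVK10C-int, a further SETDB1 target, ran from 1007 to 5559 CPM in the controls alone, and its paired log2 fold change was -0.45 (95% interval -0.93 to 0.04). Major and minor satellites, the targets of SUV39H1 and SUV39H2, were not analysed here.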

How the data were processed

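RNA-seq was measured in 8 mESC and 2 hESC libraries, grouped by their labels. The authors used SQuIRE to map and count reads (mm10 for mouse, hg38 for human), and the submitters' notes also name Trim Galore, HISAT2 and DESeq2. Versions and the gene annotation are not given in the sources used here. For genes, the authors deposited DESeq2 variance-stabilised values on a log2 scale, 1 per library. For repeats, they deposited expected counts per subfamily, in which multi-mapping reads are shared by expectation-maximisation, and counts of uniquely mapped reads. In the mESC repeat table, 3 other columns of per-sample values were not used.

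Here the transformation was inverted, which gave whole reads (within 0.01 read) for 100% of the values above the lowest. CPM and RPKM were computed from these reads with GENCODE lengths (GRCm38 and GRCh38). Recovered gene reads were 4489804 to 6921305 in control mESCs, 3354852 to 5826923 in vitC-treated mESCs, and 15367652 and 17188555 in hESCs, so genes with few reads were measured less precisely.

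The main test was limma 3.58.1 (eBayes with trend, R 4.3.3) on the deposited values, for genes that 4 or more libraries held above the lowest value, with Benjamini-Hochberg adjustment and a threshold of 0.05. Repeats were tested with edgeR 4.0.16 (quasi-likelihood, TMM) on rounded expected counts. The alternatives were the replicate block, edgeR or DESeq2 1.42.0 on recovered reads, other filters, scales and pseudocounts (1 and 5), each library left out, and each culture set alone. The fitting functions and the formula of the inversion were tested on simulated data, and the other steps were not. The study's methods name no block, so the main test has none. The numbers were taken to pair the libraries, since same-numbered libraries share a sample code. Such libraries also deviated together from their group means over genes (correlations of 0.626 to 0.765). For each control, the highest correlation with a treated library of another number was lower, at 0.574 to 0.665. Part of the correlation is thus not particular to the number. The paired value is given wherever it changes a call.

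The members and gene lists were chosen with earlier results of these data known. Named beside them are, in each list, up to 3 genes past the threshold in either fit with the largest differences, or else the gene with the largest difference, and the repeat subfamilies listed as targets, of which GSAT_MM and SYNREP_MM were not analysed here. 1 gene of the HUSH list and 2 of the 2-cell list had no row under the names tried.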

Additional observations from a re-analysis of the deposited data

Results flagged for a closer look

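The members *Atf7ip*, *Ehmt1* and *Suv39h1* were higher with vitC in 4 of 4 mESC pairs, while their human counterparts were slightly lower in the treated hESC library, with log2 ratios of -0.017, -0.027 and -0.042. The flag rests on sign alone: all mESC pairs had one sign and the lone hESC pair the other. *Setdb1*, also higher in 4 of 4 mESC pairs, had a human log2 ratio of 0.04. Of all tested mouse genes, 15.4% were higher in 4 of 4 pairs. How many of these had a human ratio below 0 was not counted. The difference between cell types was not tested, since there was 1 hESC library per condition, and each human interval included 0. Dixon's criterion was applied to 32 groups of 4 mESC libraries (control or treated, over members and targeted subfamilies). In 0 of them was 1 library far from the other 3. Each group held libraries of both culture sets, and a difference between the sets makes such a flag less likely. The usual rate of about 1 in 20 by chance thus does not apply, and no conclusion on single libraries is drawn.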

How the results depend on the processing

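With the replicate block, which accounts for the pairing, limma called 4 members, 931 genes higher and 650 lower and 7 pathway genes, in place of 0, 47, 3 and 0, and edgeR called 2 targeted subfamilies in place of 0. The block changed no other call of a member, pathway gene or targeted subfamily. On recovered reads, edgeR with the block gave 4 members, 977 genes higher and 750 lower. DESeq2 gave 1, 111 and 20 without the block and 2, 341 and 146 with it. The first culture set alone gave 1 member, 77 genes higher and 9 lower, and the second 1 member and 9 lower. Requiring values above the lowest in all 8 libraries gave 27 genes higher and 1 lower, quantile normalization 5 lower, and a pseudocount of 5 gave 1 lower. DESeq2 and the fit without a filter each called 1 targeted subfamily, L1Md_T. Uniquely mapped counts with the block, an alternative chosen after seeing the data, called 0. The cause of these shifts was not tested. Each library was also left out in turn. In the paired fits this dropped the library's pair from the vitC difference, so either library of a pair gave the same difference. Members called were then 0 unpaired and 3 paired (*Ehmt1* was lost each time), genes higher 19 to 28 unpaired and 594 to 777 paired, genes lower 0 to 1 and 355 to 551, and targeted subfamilies 0 to 1, with L1Md_T called without vitC replicate 3. Some signs changed. With a library left out, the vitC difference of *Trim28* ran from -0.082 to 0.062 (0.024 in replicates 3 and 4 alone), MERVL-int from -0.042 to 0.10 (-0.11 by uniquely mapped counts, without and with the block), MMERVK10C-int from -0.91 to 0.10, and MT2_Mm from -0.11 to 0.0053. The set difference of *Ehmt2* ran from -0.022 to 0.049. The interaction of set and treatment ran from -0.013 to 0.11 for *Setdb1*, -0.035 to 0.15 for *Trim28*, -0.091 to 0.063 for *Ehmt1*, -0.20 to 0.054 for *Suv39h1*, -0.15 to 0.0011 for *Suv39h2*, -0.029 to 0.13 for *Cbx5* and -0.087 to 0.073 for *Morc3*. The sign of the vitC difference was the same in all 30 fits for every member but *Trim28*. Of the alternatives for single genes and subfamilies, 504 kept their direction and side of the threshold, 45 passed it newly, 30 changed sign, and 37 values without a test moved, 36 of them levels under another gene length. Depth limits *Suv39h1* most, with 49 to 141 reads a library.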
